A study of Mus musculus with 75 samples.

Results

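The comparison set 17 adult outer hair cells (WT_P30 OHCs) against 16 adult cochlear supporting cells (WT_P60 SCs), 33 of the 75 single mouse cells in the series. The cells were chosen by their labels alone, and the row of the viral WPRE element, which is no mouse gene, was left out. OHCs were Tdtomato+ cells of Slc26a5-CreER/+; Ai9/+ mice given tamoxifen as juveniles and collected at postnatal day 30 (P30). In these mice Cre was made from the prestin gene itself, so 1 allele of Slc26a5 carries the insertion. SCs were Tdtomato+ cells of Fgfr3-iCreER+; Ai9/+ mice given tamoxifen at P30 and collected at P60, a line that labels mainly pillar cells and Deiters' cells. Both groups carried the Ai9 reporter and had tamoxifen, neither carried an Atoh1 or Ikzf2 transgene or had its hair cells damaged, and each cell was picked by hand and made into a full-length Smart-Seq library with no molecular identifiers. Cell type, age and labelling line coincide in these groups and cannot be told apart, the library identifiers in the labels run in a separate block for each group, and the number of mice behind each group is not given in the sources used here.

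OHCs are the sensory cells that lengthen and shorten with sound and so amplify it: stretch-gated channels at the tips of their stereocilia open, potassium enters, and the voltage change drives the motor protein prestin in the lateral wall. The pillar and Deiters' cells that hold them are epithelial cells joined by gap junctions, stiffened by bundled microtubules and actin, and they clear potassium and glutamate from around the hair cells. Prestin, oncomodulin, Sox2 and connexin 26 are the usual markers of these cells, and the pathways around them are the subject here.

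Read totals were similar, 4821150 to 7846560 counts per OHC and 5576508 to 8355421 per SC. The number of genes at 1 CPM or more (CPM, counts scaled to a common library size of 1000000) was 3630 to 5431 in the OHCs and 5542 to 7743 in the SCs, so no OHC reached the SC with the fewest. Of the 10 OHC markers, 8 were called higher in OHCs, and their summed level was 14207 to 46602 CPM per OHC against 0 to 156 per SC. Of the 10 SC markers, 7 were called higher in SCs (2305 to 14153 CPM summed per SC, 0 to 505 per OHC), while Sparcl1 and Epyc had no count in any of the 33 cells. The Deiters' cell list summed to 1981 to 8584 CPM per SC, where 4 of its 8 members had no count. In OHCs it summed to 0 to 1121 CPM (median 366), mainly Lcp1, an actin bundler found in 16 of 17 OHCs. Of its 5 tested members, 2 were called higher in SCs (1 with the covariate described below). The pillar cell list summed to 1141 to 2046 CPM per SC and 0 to 205 CPM per OHC, with 4 of 6 tested members called higher in SCs (2 with the covariate described below). Markers of other cochlear epithelium reached 601 CPM in SCs, with a member detected in 10 cells (Nupr1 in 7). In OHCs they reached 167 CPM, with a member detected in 4 cells (Coch in 1). Of their 3 tested members, 1 was called higher in OHCs (0 with limma or the covariate) and 0 in SCs. Blood, macrophage, endothelial and neuronal lists had medians of 0 to 23.4 CPM in both groups. Endothelial sums reached 301 CPM in SCs and 185 CPM in OHCs, with a member detected in 10 cells of each group. Neuronal sums reached 211 CPM in OHCs, and no blood or macrophage sum exceeded 93.2 CPM. The inner hair cell list stood at a median of 1259 CPM in the OHCs, but this was Otof and Calb2, whereas Slc7a14 had no count and Slc17a8 was at 1 CPM or more in 2 OHCs. Mal, a myelin and epithelial membrane protein, carried the glial list in SCs (358 to 1281 CPM), where Mbp and Pmp22 had no count. Pdgfra carried the fibroblast list in OHCs (15 of 17 cells, up to 401 CPM), where Col3a1 and Dcn had no count. All 16 SCs expressed Xist and none a Y-linked gene, whereas 8 OHCs had Xist only, 5 had Y-linked genes only and 4 had neither; 4 of 4 Y-linked genes were called higher in OHCs (0 with limma or the covariate), and sex composition differed between the groups.

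Of 11443 genes tested with edgeR's quasi-likelihood test, 568 were called higher in OHCs (4.96%) and 1184 higher in SCs (10.3%) at an adjusted p (Benjamini-Hochberg) below 0.001, with |log2 fold change| above 2. The median log2 fold change (OHC minus SC) of all genes was -0.16. Adding each cell's gene count as a covariate gave 483 and 693 calls. Fitted to these 2 groups alone, with the filter on low counts applied to them, the test called 192 and 231 of 5494 genes, and with only the 8 OHCs that expressed Xist it called 422 and 514 of 12280. Many calls rested on few cells: 305 of the 568 were at 1 CPM or more in at least 9 OHCs and 664 of the 1184 in at least 8 SCs, while 40 and 29 were at that level in at most 1 cell of the higher group. For the lists below with 3 or more calls in a direction, the count with the covariate is given where it fell by more than 1.5 times. All OHCs stood above all SCs for 124 genes (1.08%), and all SCs above all OHCs for 224 (1.96%). Where 1 group had no count at all, a fold is given as a lower bound against a floor of 3 counts per cell.

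**Figure D1:**
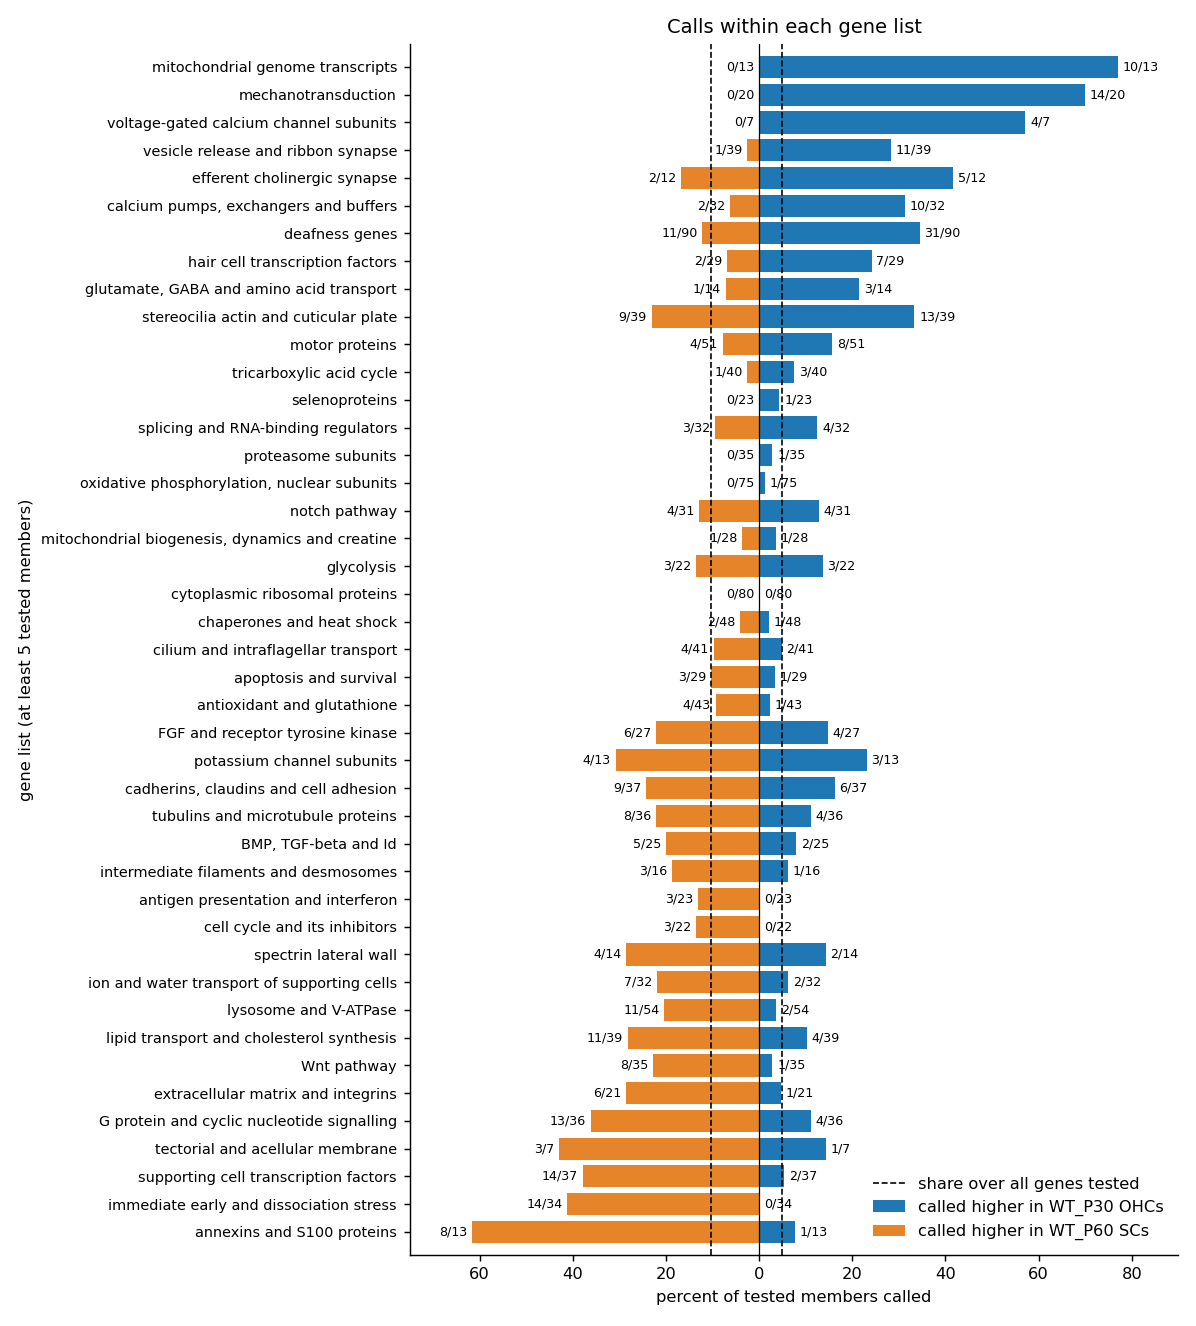
Share of the tested members of each gene list called higher in WT_P30 OHCs (right, blue) or in WT_P60 SCs (left, orange), in percent, with the number called and tested beside each bar; dashed lines mark the shares over all 11443 genes, 4.96% and 10.3%. Mitochondrial genome transcripts and mechanotransduction lie far to the right, annexins and S100 proteins and the immediate early genes far to the left, and cytoplasmic ribosomal proteins have no bar.

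The 10 genes with the smallest adjusted p on the OHC side held Espn, Slc26a5, Myo7a and Selenow together with genes outside the usual marker panels. Chst2, a sulfotransferase of carbohydrate chains, was at 115 to 1533 CPM (median 948) in the OHCs and had no count in any SC, at least 2103-fold higher. Fcrlb, an Fc receptor-like protein, ranged from 101 to 1209 CPM, and Lrrc10b, a leucine-rich repeat protein, from 12.1 to 1173 CPM, against 0 and at most 0.156 CPM in SCs. Chrna9, the efferent receptor subunit described further on, and the predicted gene Gm5737 were also among them. On the SC side, beside Mbnl2, Cnn3 and Cmtm8, stood Cdh1 (E-cadherin), Wls, S100a10, Tspan8, Nipal2, Zfp36 and Psat1. Wls, which escorts Wnt proteins to the cell surface, was at 267 to 1328 CPM (median 432) in every SC and had no count in any OHC, at least 1160-fold higher. Psat1, the aminotransferase of serine synthesis, was at 56.8 to 544 CPM against no count. Tspan8, a tetraspanin of epithelial membranes, was at 662 to 1844 CPM against no count, at least 2433-fold higher. For all of these the groups did not overlap, and their adjusted p in edgeR's quasi-likelihood test ran from 1.9e-28 (Espn) to 8.8e-12 (Fcrlb). Mbnl2, Cnn3, Tspan8, Nipal2 and Zfp36 overlap annotated genes on the opposite strand, and without strand the reads of both cannot be told apart.

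Calcium handling separated the cells beyond oncomodulin. Of 32 tested pumps, exchangers and buffers, 10 were called higher in OHCs and 2 in SCs (median log2 fold change 0.67). Calm2, which encodes calmodulin, the common calcium sensor, ranged from 4137 to 9955 CPM in OHCs and from 67.3 to 1694 CPM in SCs, without overlap. Its log2 fold change was 2.57 ± 0.32. Here and below, ± after a log2 fold change is its size divided by the square root of the test's F, an approximate SE. Calm3, another calmodulin gene, was not called, with 33.5 to 1145 CPM in OHCs and 14.5 to 256 CPM in SCs. Calml4, a calmodulin-like light chain, was at 441 to 3056 CPM (median 1327) in every OHC and had no count in any SC, at least 3430-fold higher. The buffers calretinin (Calb2) and parvalbumin (Pvalb) reached 1758 and 2320 CPM, but their lowest OHCs were at 0.401 and 0.162 CPM, so both varied widely among OHCs while no SC had a count. Atp2b2, the calcium pump of the hair bundle, was at 297 to 1119 CPM in OHCs and at most 50.2 CPM in SCs (6.93 ± 1.45). The SC side of the list was Itpr2, a calcium release channel of the endoplasmic reticulum, with 0.278 to 505 CPM (median 181) in SCs and no count in OHCs, and S100b, with 270 to 743 CPM against at most 21.5. Calm2, Calm3, Pvalb, Calb2 and Atp2b2 were named after their values were seen.

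**Figure D2:**
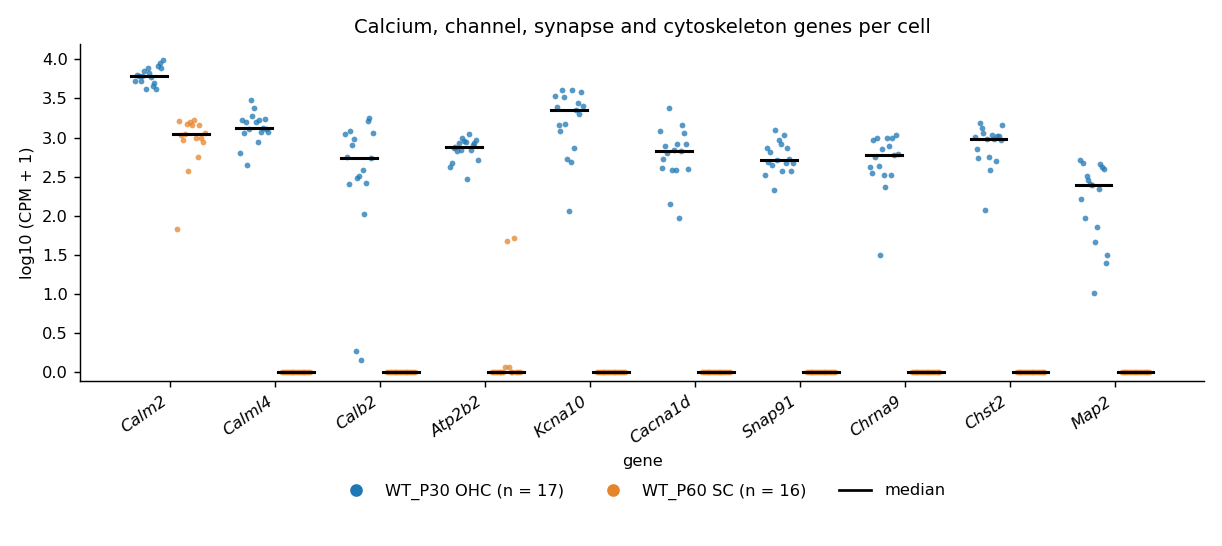
Level of 10 genes in each of the 17 OHCs (blue) and 16 SCs (orange), as log10 (CPM + 1), with a bar at each group's median. The genes are of calcium handling, ion channels, synapse and cytoskeleton, together with the sulfotransferase gene Chst2. Calm2 is present in both groups at different levels, while the other genes have a median of 0 in the SCs. Atp2b2 reached 50.2 CPM in 1 SC and 46.3 CPM in another.

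Potassium channel genes were called in both directions, whereas calcium channel, vesicle release and efferent synapse genes had more calls on the OHC side. Of 13 tested potassium channel subunits, 3 were called higher in OHCs and 4 in SCs. Kcna10, a voltage-gated channel subunit, was at 112 to 4026 CPM (median 2283) in OHCs with no count in SCs, at least 5040-fold higher, and Kcnh2 was at 1 CPM or more in 15 OHCs and had no count in SCs. The inward rectifiers Kcnj10 and Kcnj16, which take up potassium in supporting cells, were at 84.2 to 930 and 560 to 1644 CPM in SCs against no count and at most 4.54 CPM. Of 7 calcium channel genes, 4 were called higher in OHCs and none in SCs, where none had an unadjusted p under 0.05 in edgeR or was called by DESeq2 or limma. The covariate left 2 of the 4. Cacna1d, the pore of the hair cell channel, was at 91.3 to 2354 CPM (median 677) against no count, and its partner Cabp2 at 271 to 1929 CPM against at most 47.9. Of 39 tested genes of vesicle release, 11 were called higher in OHCs and 1 in SCs. Snap91, a clathrin adaptor of vesicle recycling, ranged from 209 to 1236 CPM and Snap25, a fusion protein of synapses, from 0.655 to 688 CPM, and neither had a count in an SC. Stx7, a syntaxin of late endosomes, went the other way, with 758 to 1669 CPM in SCs and 0 to 174 CPM in OHCs. Of 12 tested genes of the efferent synapse, 5 were called higher in OHCs and 2 in SCs. The nicotinic subunits Chrna9 (30.7 to 1065 CPM, median 599) and Chrna10 (104 to 1180 CPM, median 477) had no count in SCs, at least 1424-fold and 1354-fold higher. Bche, butyrylcholinesterase, which degrades acetylcholine, was at 1 CPM or more in 10 SCs and had no count in OHCs. Neither of 2 tested sodium channel subunits was called in edgeR, DESeq2 or limma, and neither had an unadjusted p under 0.05 in edgeR. Chrna10 and Cacna1d overlap a gene on the other strand.

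Of 20 tested mechanotransduction genes, 14 were called higher in OHCs and none in SCs (median log2 fold change 8.91, or 6.83 with lower bounds in place of fits against 0). On the SC side 1 had an unadjusted p under 0.05 in edgeR, DESeq2 called 1 and limma 0. Loxhd1, a protein of the stereociliary membrane, was at 167 to 1259 CPM with no count in SCs. Pcdh15, the lower part of the tip link, and Ush1c, which anchors the link, were not called: Pcdh15 was at 1 CPM or more in 12 OHCs and 11 SCs, and Ush1c was at 0.485 to 884 CPM (median 398) in OHCs and 143 to 581 CPM (median 221) in SCs. Stereociliary and cuticular plate actin genes moved in both directions, with 13 of 39 called higher in OHCs and 9 in SCs. Espn, which bundles stereociliary actin, was at 203 to 1500 CPM against no count. Transcripts of actin itself were lower in OHCs: Actb was at 0.432 to 264 CPM (median 52) in OHCs and 898 to 3304 CPM (median 1213) in SCs (-4.11 ± 0.50), and Actg1 at 1.01 to 819 CPM (median 249) against 841 to 2155 CPM (-2.24 ± 0.37). Actg1 was not called with the covariate (-1.93) or with only the OHCs that expressed Xist (-1.88). Tmod1, which caps actin filaments, was at 902 to 1937 CPM in SCs and reached 62.6 CPM in 1 OHC, with -8.51 ± 1.02. Actg1 was named after its values were seen. Both actins have close copies in the genome, among which the counting could split reads.

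Several protein families had at least 1 member called in each direction, a pattern picked out after the values were seen, and 1 pair of each is given. The fascins bundle actin: Fscn2 was at 1 CPM or more in 15 of 17 OHCs (median 200 CPM) and had no count in SCs, and Fscn1 was at 6.34 to 155 CPM in every SC and had no count in OHCs. The plastins did likewise, with Pls1 at 181 to 1146 CPM in OHCs and at most 158 CPM in SCs (3.61 ± 0.75), and Pls3 at 1 CPM or more in 12 SCs (median 85.8 CPM) and at most 0.131 CPM in an OHC. Among enzymes that lengthen polyunsaturated fatty acids, Elovl2 was at 1 CPM or more in 12 OHCs and no SC, and Elovl5 in 12 SCs and no OHC. Among G protein alpha subunits, Gnao1 was at 1 CPM or more in 8 OHCs and Gna14 at 30.6 to 799 CPM in every SC, each with no count in the other group. Among annexins, Anxa6 was at 1 CPM or more in 13 OHCs (median 107 CPM) and Anxa4 in 12 SCs (median 92.8 CPM). Among Wnt ligands, Wnt4 was at 1 CPM or more in 13 OHCs and 1 SC (7.04 ± 1.54), and Wnt7a in 11 SCs and no OHC. Except for Pls1, Fscn1 and Gna14, each of these genes was at 0 in 1 to 6 cells of the higher group, so their groups overlapped.

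**Figure D3:**
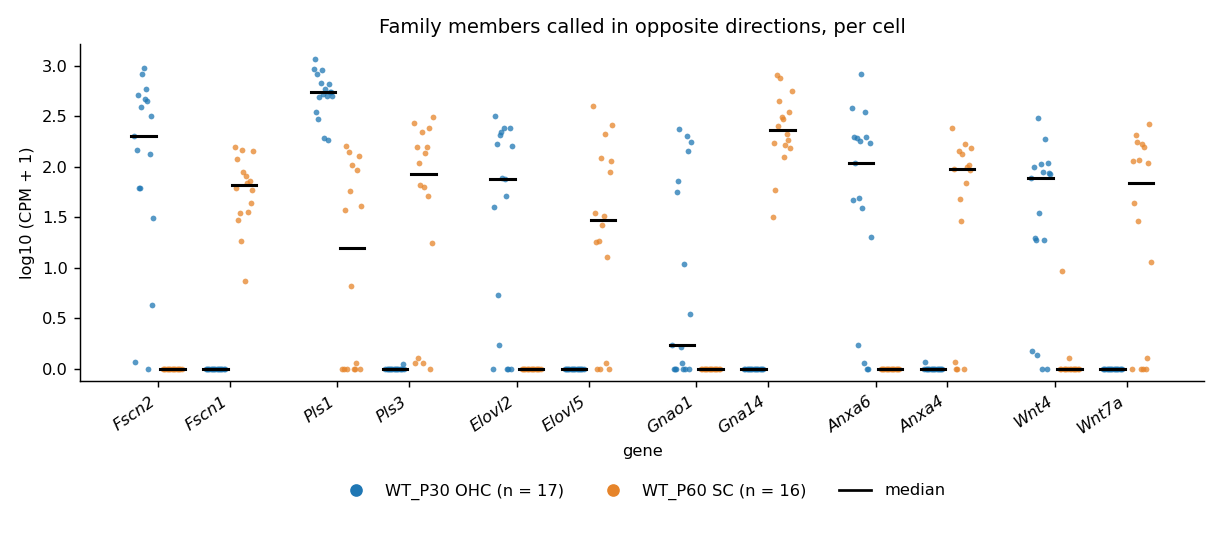
Level of 1 chosen pair of members from each of 6 gene families in each of the 17 OHCs (blue) and 16 SCs (orange), as log10 (CPM + 1), with a bar at each group's median. In each pair the first member was called higher in OHCs and the second in SCs.

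Microtubule genes were called in both directions. Of 36 tested tubulins and microtubule proteins, 8 were called higher in SCs (22.2%) and 4 in OHCs (11.1%), against 10.3% and 4.96% of all genes tested. With the covariate 4 were called in each direction. Stmn1, which destabilises microtubules, was at 1559 to 2960 CPM (median 2141) in SCs, at most 62.3 CPM in OHCs and at 1 CPM or more in 1 of them (-9.21 ± 1.37). Tuba1b, an alpha tubulin with close copies, was at 150 to 756 CPM in SCs and 0 to 99.4 CPM in OHCs. Map1lc3b, a microtubule-associated protein of autophagosomes, was at 639 to 1958 CPM against 0 to 601. In the other direction, Map2, which stabilises microtubules in dendrites, was at 9.08 to 515 CPM (median 249) in every OHC and had no count in SCs, at least 551-fold higher. Map1b was at 1 CPM or more in 9 OHCs and no SC. Among 51 motor proteins, 8 were called higher in OHCs (15.7%) and 4 in SCs (7.84%, 2 genes with the covariate). The SC share was below that over all genes tested. Beside Myo7a, the kinesin Kif5c was at 1 CPM or more in 14 OHCs (median 109 CPM) and no SC. The SC calls Kif1c, Kif9 and Kif3c were at 1 CPM or more in 9, 8 and 5 SCs. Map2, Tuba1b, Map1lc3b and Kif3c overlap a gene on the other strand.

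Transcripts of the mitochondrial genome made up 6.05% to 14.5% of counts in OHCs (mean 10.3% ± 2.58 SD, n = 17) and 1.3% to 2.59% in SCs (1.94% ± 0.34 SD, n = 16), without overlap. Of 13 tested mitochondrial genes, 10 were called higher in OHCs and none in SCs, by edgeR, DESeq2 or limma or at an unadjusted p under 0.05 in edgeR, and in 12 every OHC stood above every SC. With the covariate 2 of the 10 were called. The ribosomal RNA mt-Rnr2 was at 8843 to 40488 CPM against 1036 to 5305 CPM (2.78 ± 0.38). mt-Nd4, a subunit of complex I, was at 4478 to 11168 CPM in OHCs and 810 to 2010 CPM in SCs (2.46 ± 0.39). The most abundant uncalled members passed the adjusted p but not the fold: mt-Co1, a subunit of cytochrome c oxidase, was at 7877 to 21466 CPM against 2850 to 6157 CPM (1.60 ± 0.39), and mt-Nd1 at 6291 to 20036 CPM against 1934 to 4865 CPM (1.90 ± 0.39). mt-Nd3, mt-Co2, mt-Co3 and mt-Atp6 had medians of 80.4 to 108 CPM in OHCs, and parts of the mitochondrial genome have copies in the nuclear genome among which reads can be split. mt-Nd4, mt-Co2, mt-Co3 and mt-Atp6 were named after their values were seen. Of 75 tested nuclear subunits of the same complexes, 1 was called, Ndufa5 of complex I, at 240 to 785 CPM in OHCs and 60 to 207 CPM in SCs (2.06 ± 0.40). With the covariate 7 of the 75 were called higher in OHCs. The median log2 fold change of the 75 was 0.76, and 63 were above 0, against 5141 of all 11443 genes. Atp5b, the catalytic subunit of the ATP synthase, was at 743 to 2510 CPM against 602 to 1300 CPM (0.94 ± 0.23), and Cox8a, a subunit of cytochrome c oxidase, at 970 to 2148 CPM against 285 to 703 CPM (1.71 ± 0.37).

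**Figure D4:**
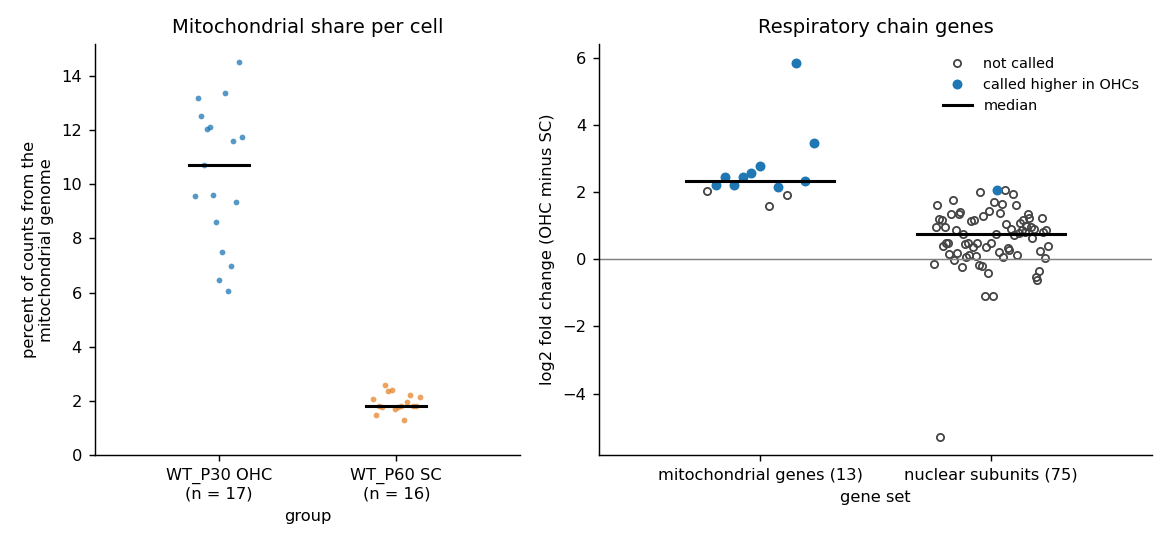
Left, percent of each cell's counts from the mitochondrial genome in the 17 OHCs (blue) and 16 SCs (orange), with a bar at the median; right, log2 fold change (OHC minus SC) of 13 mitochondrial genes and 75 nuclear subunits of oxidative phosphorylation, 1 point a gene, filled where called. The OHCs lie at 6.05% to 14.5% and the SCs at 1.3% to 2.59%, and 63 of 75 nuclear subunits lie above 0.

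Energy metabolism outside the respiratory chain showed single genes rather than shifts of a list. Of 22 glycolytic genes, 3 were called in each direction. Hk2, a hexokinase, was at 3.58 to 402 CPM (median 233) in every SC and had no count in OHCs, at least 461-fold higher. Aldoc, an aldolase of glial and epithelial cells, was at 0.139 to 438 CPM (median 93.4) in SCs and at most 0.131 CPM in an OHC. Ldha, a lactate dehydrogenase subunit, was at 1 CPM or more in 8 OHCs and no SC. Gapdh (351 to 1402 CPM in OHCs, 998 to 1887 CPM in SCs) and Aldoa (130 to 1171 and 319 to 932 CPM) were not called. In the tricarboxylic acid cycle list, 3 of 40 were called higher in OHCs and 1 in SCs, and its most abundant uncalled members, Mdh1 and Sdha, overlapped between groups. Ckmt1, the mitochondrial creatine kinase, was at 0.276 to 646 CPM (median 287) in OHCs and had no count in SCs, at least 670-fold higher. It overlaps Strc on the other strand, and Strc, an OHC marker, was at 214 to 1456 CPM in OHCs, so the reads of these neighbours cannot be told apart.

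Lipid genes had more calls on the SC side, with 11 of 39 tested members higher in SCs and 4 in OHCs (median log2 fold change -2.61). Fasn, fatty acid synthase, was at 391 to 2768 CPM (median 1594) in SCs and 0 to 340 CPM in OHCs, at 1 CPM or more in 4 of them (-5.998 ± 1.05). Scd1, which desaturates its products, was at 105 to 4306 CPM against 0 to 217 CPM (-5.72 ± 1.02). Insig1, the sterol sensor that restrains cholesterol synthesis, was at 0.738 to 375 CPM in SCs and at most 0.719 CPM in an OHC. Apolipoprotein J (Clu) was at 8961 to 39833 CPM (median 27041) in SCs and 0 to 1429 CPM in OHCs (-5.89 ± 1.35). Fabp3, a fatty acid binding protein, was at 5752 to 16611 CPM against 0 to 425 CPM (-6.49 ± 1.42), and the pseudogene Fabp3-ps1 was called in the same direction. Scd2 and Msmo1, the most abundant uncalled members, did not pass the adjusted p: Scd2 was at 359 to 1704 CPM in SCs and 0 to 299 CPM in OHCs. The 3 OHC calls besides Elovl2 were at 1 CPM or more in 1 to 4 OHCs. Fasn, Scd1, Clu, Fabp3 and Fabp3-ps1 were named after their values were seen.

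**Figure D5:**
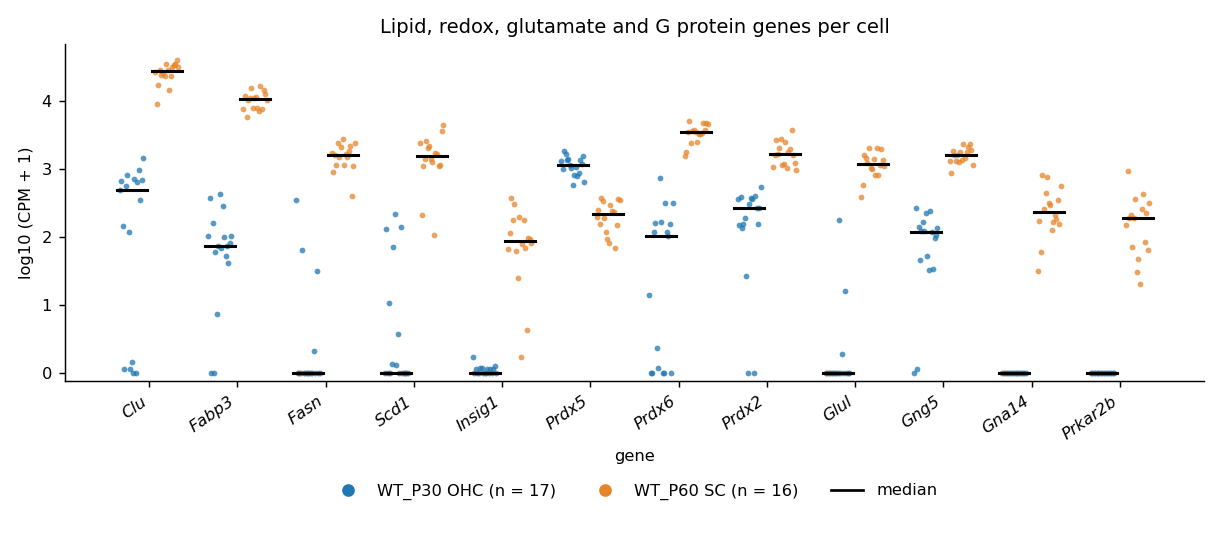
Level of 12 genes of lipid metabolism, redox, glutamate and G protein signalling in each of the 17 OHCs (blue) and 16 SCs (orange), as log10 (CPM + 1), with a bar at each group's median. The SC median lies above the OHC median for all of them except Prdx5.

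Single peroxiredoxins, which remove hydrogen peroxide, were called in both directions. Of 43 tested antioxidant genes, 1 was called higher in OHCs (2.33%) and 4 in SCs (9.3%, 1 gene with the covariate). Neither share was above that over all genes tested, 4.96% and 10.3%. Prdx5, of mitochondria and peroxisomes, was at 568 to 1824 CPM in OHCs and 68.3 to 374 CPM in SCs (2.39 ± 0.41), while Prdx6 was at 0 to 734 CPM in OHCs and 1527 to 4957 CPM in SCs (-4.73 ± 0.78) and Prdx2 at 0 to 543 and 953 to 3705 CPM (-2.90 ± 0.55). The groups did not overlap for any of the 3. Gpx2 (1406 to 7140 CPM in OHCs, 4940 to 28062 CPM in SCs) and Gpx4 (219 to 1182 and 492 to 1465 CPM), glutathione peroxidases, were not called. Glul, glutamine synthetase, which converts glutamate taken up from synapses, was at 379 to 2027 CPM in every SC and at 1 CPM or more in 3 OHCs (-6.78 ± 1.52). The neutral amino acid carrier Slc1a5 was at 1 CPM or more in 14 OHCs (median 116 CPM) and no SC. Slc1a3, the glutamate carrier of supporting cells around inner hair cells, had no count in any of the 33 cells. Of 54 lysosomal genes, 11 were called higher in SCs (5 with the covariate) and 2 in OHCs. Tfeb, the factor that drives lysosomal genes, was at 1 CPM or more in 15 SCs (median 68.5 CPM) and 1 OHC, and Cd9, a tetraspanin, was at 362 to 1092 CPM in SCs and at most 0.168 CPM in an OHC. Mcoln3, the hair cell channel of the varitint-waddler mouse, was at 303 to 1977 CPM in OHCs and at most 140 CPM in SCs (5.73 ± 1.34). Prdx5, Prdx2, Glul and Cd9 overlap a gene on the other strand.

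Annexins and S100 proteins, which bind calcium at membranes, had 8 of 13 tested members called higher in SCs (5 with the covariate) and 1 in OHCs, the largest SC share of any pathway list with more than 2 tested members. S100a10, which pairs with annexin A2, was at 135 to 905 CPM in SCs and had no count in OHCs, at least 637-fold higher. S100a13 was at 340 to 1622 CPM against 0 to 261 CPM (-4.32 ± 0.84). S100a1, the most abundant of the list in reads, did not pass the fold threshold but did not overlap, with 6691 to 15946 CPM in SCs and 1613 to 5466 CPM in OHCs (-1.48 ± 0.37).

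G protein and cyclic nucleotide signalling had 13 of 36 tested members called higher in SCs and 4 in OHCs (median log2 fold change -1.73). The gamma subunits Gng12 and Gng5 were among them: Gng12 was at 31.4 to 510 CPM in every SC with no count in OHCs, and Gng5 at 854 to 2330 CPM against 0 to 263 CPM (-3.86 ± 0.49). Gna14, an alpha subunit of the class that activates phospholipase C, was at least 670-fold higher. Prkar2b, a regulatory subunit of protein kinase A, was at 19.5 to 921 CPM (median 190) in SCs and had no count in OHCs. Rgs12, which ends G protein signals, was on the OHC side, at 1 CPM or more in 15 OHCs (median 131 CPM) and at most 0.137 CPM in an SC. Prkar1a, another regulatory subunit of the same kinase, was at 0 to 747 CPM in OHCs and 188 to 686 CPM in SCs and was not called. Gng12 and Rgs12 overlap a gene on the other strand. Prkar2b was named after its values were seen.

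Receptor and ligand genes of the developmental pathways were called in both directions, often from few cells. Over all genes tested, 10.3% were called higher in SCs and 4.96% in OHCs. Of 27 FGF and receptor tyrosine kinase genes, 6 were called higher in SCs (22.2%) and 4 in OHCs (14.8%). Etv5, a transcription factor that FGF signals switch on, was at 23.3 to 215 CPM (median 131) in every SC and at most 0.263 CPM in an OHC, and Fgfr3, the gene whose regulatory sequence drives the SC label, at 279 to 2020 CPM against 0 to 164 CPM (-5.70 ± 1.07). Egfr was at 1 CPM or more in 9 SCs and no OHC, and Ephb1 in 14 SCs and no OHC. Pdgfra and Epha4 were at 1 CPM or more in 15 and 10 OHCs and no SC. Of 35 Wnt pathway genes, 8 were called higher in SCs (22.9%, 5 genes with the covariate) and 1, Wnt4, in OHCs (2.86%). The receptor Fzd4 and the transcription factor Tcf7l2 were at 1 CPM or more in 8 and 12 SCs and no OHC. Of 25 BMP, TGF-beta and Id genes, 5 were called higher in SCs (20%, 2 genes with the covariate, Id2 not among them) and 2 in OHCs (8%). Id2, which blocks bHLH factors such as Atoh1, was at 329 to 3287 CPM in SCs and 0 to 667 CPM in OHCs (-3.75 ± 0.73), whereas Id4 (152 to 1134 and 3.54 to 622 CPM) was not called. Bmp3 was at 1 CPM or more in 10 OHCs and no SC, and Bmp6 in 7 SCs and no OHC. Of 31 Notch pathway genes, 4 were called in each direction (12.9% each, 2 genes on the SC side with the covariate). The SC share was near that over all genes tested. Dner, a transmembrane Notch ligand, was at 135 to 1012 CPM (median 692) in every OHC against no count in SCs, at least 1585-fold higher, and Jag2 was at 1 CPM or more in 9 OHCs and no SC. The Notch effector Hes1 was at 2.31 to 258 CPM in every SC and had no count in OHCs, and Lfng, which glycosylates Notch, was at 1 CPM or more in 9 SCs and no OHC. Fgfr3, Ephb1, Pdgfra and Bmp6 overlap a gene on the other strand.

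Among transcription factors, 7 of 29 tested hair cell factors were called higher in OHCs and 2 in SCs, and 14 of 37 supporting cell factors higher in SCs (7 with the covariate) and 2 in OHCs. Pou4f3, required for hair cell survival, was at 131 to 1212 CPM (median 655) in OHCs with no count in SCs. Gfi1 was at 24.6 to 442 CPM and Barhl1 at 1.87 to 497 CPM, also with no count in SCs. Rorb and Eya4 were not called, and Rorb was at 643 to 1568 CPM in SCs and 20.3 to 536 CPM in OHCs (-2.07 ± 0.58). Sox9 was at 48.7 to 307 CPM in every SC and had no count in OHCs, at least 341-fold higher, and Sox2 was at 1 CPM or more in 13 SCs. The helix-loop-helix factor Tcf4 was called the other way, at 0.185 to 1006 CPM (median 256) in OHCs and 0 to 80.5 CPM in SCs (4.76 ± 1.10). Sall1, at 5.5 to 1182 CPM in OHCs and 132 to 830 CPM in SCs, was not called. Of 32 tested splicing regulators, 4 were called higher in OHCs (12.5%) and 3 in SCs (9.38%), against 4.96% and 10.3% of all genes tested, and 25 were not called. Rbm24 was at 98.4 to 930 CPM in OHCs and at most 21.1 CPM in SCs, Srrm3, of neuronal microexons, was at 1 CPM or more in 9 OHCs and no SC, and Esrp1, of epithelial splicing, in 11 SCs and no OHC. Gfi1 and Esrp1 overlap a gene on the other strand.

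Epithelial junction, matrix and transport lists had more SC than OHC calls, as had all genes tested (10.3% and 4.96%). In the adhesion list both shares were above these, 24.3% in SCs and 16.2% in OHCs. Of the adhesion and transport genes, 22 of 37 and 23 of 32 were not called. Both connexins tested were called higher in SCs, and Gjb6, connexin 30, was at 173 to 4931 CPM (median 2226) in SCs with no count in OHCs, at least 5011-fold higher. The other 15 connexin and pannexin genes listed were too low to test. Of 37 adhesion genes, 9 were called higher in SCs and 6 in OHCs (2 with the covariate, Cdh23 not among them). Cdh1 was at 6.7 to 244 CPM in every SC with no count in OHCs, and Cdh23, the upper part of the tip link, at 0.135 to 637 CPM in OHCs and at most 37.8 CPM in SCs. Cldn9, a tight junction claudin, was at 4.54 to 1709 CPM in OHCs and 732 to 2589 CPM in SCs and was not called. Of 21 tested matrix and integrin genes, 6 were called higher in SCs (2 with the covariate) and 1 in OHCs. Sparc, a secreted matrix protein, was at 3472 to 9011 CPM in every SC and at 1 CPM or more in 2 OHCs (-9.35 ± 1.90), and Mmp14, a membrane metalloproteinase, at 1 CPM or more in 13 SCs and no OHC. Otog, otogelin of the acellular membranes, was at 168 to 993 CPM in SCs with no count in OHCs. Of 32 ion and water transport genes, 7 were called higher in SCs and 2 in OHCs: the carbonic anhydrase Car13 was at 48.3 to 339 CPM in every SC with no count in OHCs, and Fxyd6, a regulator of the sodium pump, at 1 CPM or more in 12 SCs (median 501 CPM) and no OHC. The carbonic anhydrase Car2 was at 367 to 2814 CPM in OHCs and 189 to 1778 CPM in SCs and was not called. Sparc was named after its values were seen.

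Immediate early genes, which dissociation and handling can switch on within minutes, were called higher in SCs in 14 of 34 and in OHCs in none (median log2 fold change -3.60, or -2.87 with lower bounds). On the OHC side none had an unadjusted p under 0.05 in edgeR, DESeq2 called 1 and limma 0. The covariate left 8 calls on the SC side. Fos was at 235 to 9903 CPM (median 2098) in SCs and at 1 CPM or more in 2 OHCs (-7.14 ± 1.33). Zfp36, which shortens the life of AU-rich messenger RNAs, was at 176 to 2950 CPM in SCs and at most 0.78 CPM in an OHC, and Fosb was at 1 CPM or more in 14 SCs and 1 OHC. Jun, at 556 to 4918 CPM in SCs and 0 to 3362 CPM in OHCs, was not called. The part of handling in these differences was not tested. Of 22 cell cycle genes, 3 were called higher in SCs (13.6%, against 10.3% of all genes tested), among them Cdkn1a and Cdk6. Cdkn1a, an inhibitor of cyclin-dependent kinases, was at 106 to 1212 CPM against at most 47.8 CPM (-7.50 ± 1.51). Cdk6 was at 1 CPM or more in 15 SCs and no OHC. Of 29 apoptosis and survival genes, 1 was called higher in OHCs (3.45%) and 3 in SCs (10.3%, 1 gene with the covariate). These shares were near those over all genes tested, 4.96% and 10.3%. Faim2, an inhibitor of Fas-driven cell death, was at 110 to 1303 CPM in OHCs and at most 0.169 CPM in an SC, and Casp8 was at 1 CPM or more in 8 SCs and no OHC. Of 23 antigen presentation and interferon genes, 3 were called higher in SCs (13%), also near the share over all genes. Of these, Irgm1, an interferon-induced GTPase, was at 1 CPM or more in 12 SCs and 1 OHC. Fos was named after its values were seen, and Zfp36, Cdkn1a, Cdk6 and Jun overlap a gene on the other strand.

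The ribosomal protein, proteasome, chaperone, cilium and selenoprotein lists had few calls in edgeR. None of 80 tested cytoplasmic ribosomal protein genes was called in either direction, and their median log2 fold change was -0.05. Ribosomal protein transcripts made up 1.55% to 3.24% of counts in OHCs and 1.59% to 2.64% in SCs. At an unadjusted p under 0.05 in edgeR, 5 were higher in OHCs and 11 in SCs, while DESeq2 called 2 and limma 4 higher in SCs and neither called any higher in OHCs. Of 35 proteasome subunits, 1 was called higher in OHCs, Psmd6 (222 to 1311 CPM against 1.09 to 291 CPM, 2.57 ± 0.54). It was not called with the covariate, while limma called 11 of the 35 higher in SCs. Of 48 chaperones, 1 was called higher in OHCs and 2 in SCs (0 and 1 with the covariate). The heat shock protein Hsp90aa1 was at 1276 to 5712 CPM in OHCs and 291 to 1061 CPM in SCs (2.20 ± 0.27), whereas its partner form Hsp90ab1 (148 to 3245 and 857 to 2573 CPM) and Hspa8 (527 to 4992 and 1265 to 3442 CPM) were not called. Of 41 genes of the cilium and its transport, 2 were called higher in OHCs (4.88%) and 4 in SCs (9.76%), near the shares over all genes tested. None of the called genes was at 1 CPM or more in over 8 cells of either group. Of 23 tested selenoproteins, edgeR called Selenow alone, and limma also called 3 higher in SCs. Other lists had larger shares than the 4.96% and 10.3% of all genes tested. Of 90 tested deafness genes, many of which are named above, 31 were called higher in OHCs (34.4%) and 11 in SCs (12.2%, 5 genes with the covariate). The spectrin and lateral wall list had 2 of 14 called higher in OHCs (14.3%) and 4 in SCs (28.6%). The intermediate filament and desmosome list had 1 (6.25%) and 3 (18.75%) of 16, and the tectorial and acellular membrane list 1 (14.3%) and 3 (42.9%) of 7. With the covariate the SC counts of the last 2 lists were 1 each.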

How the data were processed

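The authors sequenced full-length Smart-Seq libraries of single hand-picked cells from C57BL/6 mice, checked reads with FastQC 0.11.9, trimmed them with Trimmomatic 0.39, aligned them to mm10 with HISAT2 2.1.0 and deposited raw HTSeq 0.10.0 counts per gene for 75 cells. Strand setting and annotation release are not given in the sources used here. With no molecular identifiers, a count is a read, and floors cover counting error only. The WPRE row (0.038% of wild-type counts) was left out.

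CPM were counts scaled to a TMM effective library size of 1000000, except that a gene was taken as detected at 1 CPM of the raw total. Genes passing filterByExpr (minimum count 10) were tested with edgeR 4.0.16 (R 4.3.3), quasi-likelihood, in 1 fit of all 5 groups with no covariate. Calls needed an adjusted p (Benjamini-Hochberg) below 0.001 with |log2 fold change| above 2. The ± beside a log2 fold change was derived from its size and the quasi-likelihood F, and is not a fitted standard error of the coefficient. The study gives the same cut-offs without saying that its p was adjusted, and its tool, DESeq2 (1.42.0), was an alternative, as was limma (3.58.1). Replicates are cells, and as their mice are not given, p-values measure the spread between cells only.

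The members, the 45 pathway lists and the 12 marker lists were chosen with earlier results of these data known. Genes were named where they were among the 10 smallest adjusted p per direction, the 3 smallest per direction in a list, the 2 most abundant uncalled members of a list, markers or sex-linked genes. Others are said to be named after their values were seen. Other normalizations, filters, tools, samples, thresholds, a thinning to equal depth, a covariate and a block were tried as alternatives. Some genes that the rule names are not reported here.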

Additional observations from a re-analysis of the deposited data

How the results depend on the processing

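Across alternatives, the counts of genes higher in OHCs and in SCs moved by over 1.5 times in these cases. They were 1036 and 2114 with no filter on low counts, 192 and 231 with the 2 groups alone and their own filter, and 1008 and 1842 with looser thresholds, 0.05 for the adjusted p and 1 for the log2 fold change. The SC count was 693 with each cell's gene count as a covariate. Alternatives chosen after seeing the data gave 514 in SCs with only the OHCs with Xist and no Y-linked gene, and 305 and 664 when a gene had to be detected in at least 9 OHCs or 8 SCs. The 331 distinct list members called became 136 with the 2 groups alone and their own filter, 215 with only the Xist OHCs and 515 at the looser threshold. The share of calls on the OHC side was 32.4%, against 45.4% with the 2 groups alone and their own filter, 45.1% with the Xist OHCs and 41.1% with the covariate, and it moved by less than 10 percentage points in the other fits. The median log2 fold change of all genes, -0.16, was -0.29 with DESeq2 size factors, -0.05 with library sizes alone, 0.19 with the covariate, -0.98 with limma and -1.05 with the replicate block. The fit of the 2 groups alone with their own filter tested 5494 genes and shared 171 and 223 of the calls. Replicate numbers are numbers only: with the replicate block 431 and 1096 genes were called, and none of 16 same-numbered pairs correlated above 0.1 (-0.019 to 0.025). Of the 16 OHCs in these pairs, 2 correlated best with the SC of their own number.

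Of 134 named called genes, none reversed, and 1490 of 1574 comparisons with an alternative kept the call, with 84 losing it, of which 23 with the covariate, 29 with the Xist OHCs and 12 with limma. With the 2 groups alone and their own filter, only 100 of the 134 passed the filter. The rest could not be tested in that fit and are not counted as losses. Losses with the covariate included Clu, Fabp3, Hsp90aa1, Prdx2, Prdx6, Actg1, Atp2b2, Mcoln3, Cabp2, Wnt4, Wnt7a, mt-Rnr2 and mt-Nd4, several with folds close to before (Clu -5.71, Atp2b2 6.45, Cabp2 7.42), and mt-Co2 and mt-Co3 lost the call in most of the fits. Reversals were limited to uncalled genes, near 0. Aldoa was 0.0375 with library sizes alone and 0.19 with the covariate, Hspa8 0.0595 with library sizes alone and 0.15 with the Xist OHCs, Pcdh15 -0.11 with limma and -0.0648 with the covariate, and Sdha 0.36 with the covariate. The causes were not tested.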
